A study of Homo sapiens with 6 samples.

Results

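Mitotic G2 and M phase genes encode the proteins that divide a cell: the cyclins and kinases that start mitosis, the kinesins and other spindle proteins that move chromosomes, the checkpoint that holds the cell until every chromosome is attached, and the proteins that cut the daughter cells apart. Of these genes, 42 were followed in the RNA-seq of HK-2 cells under OX-LDL stimulation, out of 58825 genes in the deposited table. They were taken by gene name from a list in 10 roles, and each name matched 1 gene. No measured value entered that choice, but the list was drawn up with earlier results of these data known. HK-2 cells descend from epithelial cells of the proximal tubule of a human kidney and were immortalized with human papillomavirus oncogenes, and the results therefore describe a single line. OX-LDL is oxidized low-density lipoprotein.

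Poly(A) RNA was sequenced from 3 Control samples, which the labels call untreated, and from 3 samples kept for 48 h with OX-LDL at 25 μg/ml. The study's methods state that cells were starved in low serum before the treatment, and the labels give no time for Control. The study's methods describe its cell experiments as repeated independently, but the labels do not tie the 3 libraries of a group to separate cultures, so p-values measure the spread between these libraries, which may be technical. Total counts per library lay between 62561347 and 76797607, and 4.23% to 4.76% of them fell on the 13 protein genes of the mitochondrial genome. Of 21 tubule and renal epithelial marker genes, EPCAM, PAX8 and the keratins KRT8 and KRT18 were expressed. However, 9 of the 21, among them the endocytic receptors LRP2 and CUBN, the water channel AQP1 and the regulator HNF4A, which define mature tubule cells, had a mean under 0.1 FPKM (fragments per kilobase, scaled also to the size of the library).

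Most of these genes are switched on once per cell cycle. Their transcripts are low in G1, build up through S phase and peak in G2 and M phase, and are then shut off. In resting cells, a repressor complex of MuvB proteins and RB family members named DREAM holds them down. In cycling cells, MuvB joins B-MYB and FOXM1 and the same genes are switched on, often through a promoter element called CHR (cell cycle genes homology region). Genes of DNA replication are controlled more through E2F sites and peak earlier, at the start of S phase. A rise of such transcripts in a whole culture can come from more cells in G2 and M phase or from more of the transcript per cell, and these cannot be told apart in bulk RNA.

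Of the 42 mitotic genes, 33 rose and none fell in OX-LDL (78.6% higher, where 7.91% of all 19510 genes tested were called higher and 7.42% lower). The test was edgeR's quasi-likelihood test on the counts over all genes whose mean reached 0.1 FPKM, called at an adjusted p-value (Benjamini-Hochberg) under 0.05. The 42 genes had a median log2 fold change (OX-LDL over Control) of 0.68, with quartiles of 0.45 and 0.88, beside -0.0043 for all genes tested. The fold change was above 1 in 41 of them, beside 49.7% of all genes. At an unadjusted p-value under 0.05 there were 40 genes, all of them higher, beside 15.3% of all genes that were higher at that limit. DESeq2 called 37 higher and 0 lower (11.7% of all genes higher), and limma on log2(FPKM + 0.1) called 30 higher and 0 lower (6.81% of all genes higher). In 36 of the 42, every OX-LDL library lay above every Control library, as was the case for 16.8% of all genes tested. The call was absent for 9 genes: KIF15, KIF18A, CDK1, AURKA, UBE2C, AURKB, NUSAP1, PRC1 and ECT2.

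The number of calls depended on the libraries. It was 19 without Control replicate 2 (3.2% of all genes then called higher), 18 without OX-LDL replicate 1 (3.44%), 18 without OX-LDL replicate 3 (3.17%) and 35 without OX-LDL replicate 2 (7.55%). OX-LDL replicate 2 had the lowest value of its group in 41 of the 42 genes. The median of the 42 genes, as log2 over the Control mean, was 0.83, 0.45 and 0.77 in OX-LDL replicates 1, 2 and 3, and 0.01, -0.07 and 0.08 in the Control replicates. Summed over the 42 genes, the libraries held 1299, 1286 and 1374 FPKM in Control and 2248, 1727 and 2143 FPKM in OX-LDL. All 3 OX-LDL libraries therefore stood above Control, replicate 2 by the smallest margin.

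**Figure D1:**
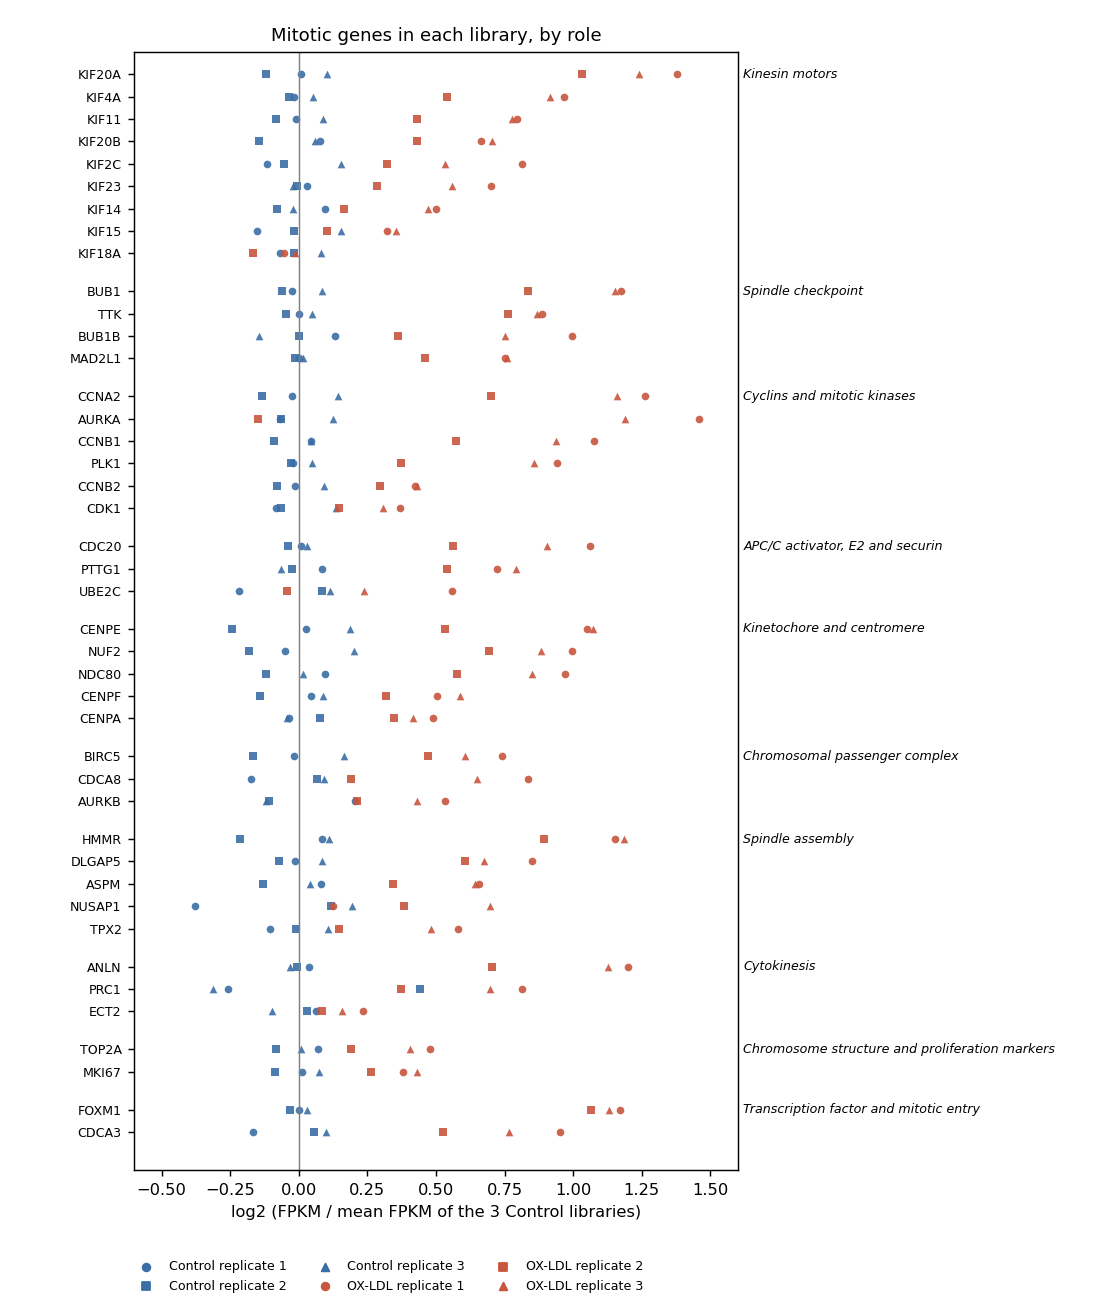
Each row is 1 of the 42 mitotic genes, grouped by role, and each point is 1 library (blue Control, red OX-LDL; circle, square and triangle are replicates 1, 2 and 3). The x axis is the log2 of FPKM over the mean of the 3 Control libraries. The red points lie to the right of the blue in 36 genes, and the red squares, OX-LDL replicate 2, are mostly the leftmost red points.

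The kinesin motors, which walk along or take apart spindle microtubules, had 7 of 9 members higher, with a median log2 fold change of 0.60. KIF20A (ENSG00000112984; chromosome 5, 138178719 to 138187723 of GRCh38), the motor that carries cytokinesis proteins to the central spindle, had 27.3, 25.0 and 29.1 FPKM in Control and 70.6, 55.6 and 64.1 FPKM in OX-LDL. The lowest OX-LDL library was 1.91-fold above the highest Control library. The log2 fold change of KIF20A was 1.25 (standard error 0.11, edgeR adjusted p = 0.0018), the largest of the 42 genes. It overlaps BRD8 and CDC23 on the other strand, and when their counts were added to its own, the log2 fold change was 0.89. KIF4A (ENSG00000090889; chromosome X, 70290104 to 70420886), a motor that binds chromosome arms and sets the length of the central spindle, had 24.2, 23.9 and 25.4 FPKM in Control and 47.9, 35.7 and 46.2 FPKM in OX-LDL. The groups did not overlap, and the log2 fold change was 0.85 (standard error 0.12, edgeR adjusted p = 0.00707). Reads of KIF4A can be shared with its near-identical copy KIF4B, which was listed at 0.211 to 0.702 FPKM.

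KIF11, which pushes the spindle poles apart, rose by 0.71 on the log2 scale, and KIF20B, a motor of cytokinesis, rose by 0.64. KIF2C, a microtubule depolymerase of the centromere, rose by 0.60, KIF23, a subunit of centralspindlin, by 0.55, and KIF14, a motor of late cytokinesis, by 0.42. The calls of KIF2C, KIF23 and KIF14 were each lost without OX-LDL replicate 1 or 3 or Control replicate 1 or 2, and those of KIF23 and KIF14 also without Control replicate 3. KIF15, which holds spindle poles apart alongside KIF11, had a log2 fold change of 0.30 (edgeR adjusted p = 0.122). KIF18A (ENSG00000121621; chromosome 11, 28020619 to 28108156), the motor that damps the movement of chromosomes at the metaphase plate, had the largest p-value of the 42 genes. It had 16.5, 17.1 and 18.3 FPKM in Control and 16.7, 15.4 and 17.2 FPKM in OX-LDL. The groups overlapped, and the log2 fold change was -0.04 (standard error 0.08, edgeR adjusted p = 0.747), the only value of the 42 below 0.

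All 4 genes of the spindle checkpoint rose, with a median log2 fold change of 0.81. TTK (ENSG00000112742; chromosome 6, 80003887 to 80042527), the MPS1 kinase that starts checkpoint signalling at unattached kinetochores, had 15.7, 15.2 and 16.3 FPKM in Control and 29.1, 26.7 and 28.8 FPKM in OX-LDL. Both groups were narrow and far apart, and the log2 fold change was 0.87 (standard error 0.07, edgeR adjusted p = 0.0016). BUB1 (ENSG00000169679; chromosome 2, 110637698 to 110678107), the kinase that recruits the other checkpoint proteins, had 21.9, 21.3 and 23.6 FPKM in Control and 50.2, 39.7 and 49.4 FPKM in OX-LDL. Every OX-LDL library was at least 1.68-fold above every Control library, and the log2 fold change was 1.09 (standard error 0.11, edgeR adjusted p = 0.0023). BUB1B and MAD2L1, which together hold CDC20 inactive, rose by 0.76 and 0.69 on the log2 scale. BUB1B lost its call without OX-LDL replicate 1 or 3 or Control replicate 2 or 3, whereas TTK, BUB1 and MAD2L1 kept theirs in each fit without a library.

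Among the cyclins and mitotic kinases, 4 of 6 genes rose. CCNA2 (ENSG00000145386; chromosome 4, 121816444 to 121823933), the cyclin A of S and G2 phase, had 32.1, 29.8 and 36.1 FPKM in Control and 78.2, 53.1 and 73.1 FPKM in OX-LDL. CCNB1 (ENSG00000134057; chromosome 5, 69167135 to 69178245), the cyclin B that drives mitotic entry with CDK1, had 57.0, 51.9 and 57.0 FPKM in Control and 117, 82.4 and 106 FPKM in OX-LDL. For both cyclins the lowest OX-LDL value was that of replicate 2 and still above all Control values. The log2 fold changes were 1.09 for CCNA2 (standard error 0.16, edgeR adjusted p = 0.00775) and 0.91 for CCNB1 (standard error 0.13, edgeR adjusted p = 0.00806). CCNB2, the other B-type cyclin, rose by 0.42, and PLK1, the kinase of centrosome maturation and mitotic entry, by 0.77. Both calls were lost without OX-LDL replicate 1 or 3 or Control replicate 1 or 2.

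CDK1, the catalytic partner of these cyclins, was not called. It had 28.5, 28.8 and 33.2 FPKM in Control and 39.0, 33.4 and 37.4 FPKM in OX-LDL, groups that did not overlap but nearly touched. Its log2 fold change was 0.31 (standard error 0.09, edgeR adjusted p = 0.0692), and it passed the threshold without OX-LDL replicate 2 (adjusted p = 0.0473). CDK1 and AURKA are given in full because their values stood out after they had been seen. AURKA, the kinase of centrosomes and spindle poles, had 32.1, 32.2 and 36.8 FPKM in Control and 92.7, 30.4 and 76.9 FPKM in OX-LDL. Replicates 1 and 3 were more than 2-fold above Control, while replicate 2 lay below all Control libraries. The log2 fold change was 1.01 (standard error 0.36, edgeR adjusted p = 0.114), and without OX-LDL replicate 2 it was 1.36 (edgeR adjusted p = 0.00333). AURKA was the only mitotic gene past the DEG limits below whose groups overlapped, and it overlaps no other gene.

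Of the 3 genes around the anaphase-promoting complex (APC/C), the ubiquitin ligase that starts anaphase, 2 rose. CDC20 (ENSG00000117399; chromosome 1, 43358981 to 43363203), its mitotic activator, had 62.4, 60.3 and 63.3 FPKM in Control and 129, 91.5 and 116 FPKM in OX-LDL. PTTG1 (ENSG00000164611; chromosome 5, 160421855 to 160428739), the securin that APC/C destroys to release sister chromatids, had 32.7, 30.3 and 29.6 FPKM in Control and 50.9, 44.9 and 53.4 FPKM in OX-LDL. Neither gene overlapped between groups. Their log2 fold changes were 0.89 for CDC20 (standard error 0.13, edgeR adjusted p = 0.0075) and 0.72 for PTTG1 (standard error 0.09, edgeR adjusted p = 0.00556). Reads of PTTG1 can be shared with its near-identical copies PTTG2 and PTTG3P. UBE2C, the ubiquitin-conjugating enzyme of APC/C, had a log2 fold change of 0.30 with overlapping groups (edgeR adjusted p = 0.259).

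All 5 kinetochore and centromere genes rose, with a median log2 fold change of 0.84. NUF2 (ENSG00000143228; chromosome 1, 163266576 to 163355759) and NDC80 (ENSG00000080986; chromosome 18, 2571557 to 2616635) form the dimer that grips microtubules. NUF2 had 14.7, 13.5 and 17.6 FPKM in Control and 30.4, 24.7 and 28.1 FPKM in OX-LDL, and NDC80 had 15.1, 13.0 and 14.3 FPKM in Control and 27.7, 21.1 and 25.5 FPKM in OX-LDL. The partners stood at like levels and moved by like amounts, with log2 fold changes of 0.89 for NUF2 (standard error 0.13, edgeR adjusted p = 0.0075) and 0.84 for NDC80 (standard error 0.12, edgeR adjusted p = 0.00772). CENPE, a kinesin that brings chromosomes to the metaphase plate, rose by 0.94, CENPF, a large kinetochore protein, by 0.51, and CENPA, the histone H3 of centromeres, by 0.45. CENPE, CENPF and CENPA each lost the call without OX-LDL replicate 1 or 3 or Control replicate 2, CENPE and CENPA also without Control replicate 1, and CENPA also without Control replicate 3.

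The chromosomal passenger complex corrects faulty attachments and guides cytokinesis. BIRC5 (ENSG00000089685; chromosome 17, 78214186 to 78225636), also called survivin, had 4.44, 4.01 and 5.04 FPKM in Control and 7.51, 6.23 and 6.85 FPKM in OX-LDL. CDCA8 (ENSG00000134690; chromosome 1, 37692481 to 37709719), also called borealin, had 27.3, 32.3 and 32.8 FPKM in Control and 54.9, 35.1 and 48.3 FPKM in OX-LDL. Neither overlapped between groups, although OX-LDL replicate 2 of CDCA8 was close to Control. Log2 fold changes were 0.64 for BIRC5 (standard error 0.12, edgeR adjusted p = 0.0194) and 0.62 for CDCA8 (standard error 0.16, edgeR adjusted p = 0.0487). Both calls were lost without OX-LDL replicate 1 or 3 or Control replicate 1 or 2, and that of CDCA8 also without Control replicate 3. AURKB, the kinase of the complex, had a log2 fold change of 0.43 (edgeR adjusted p = 0.0847), with groups that nearly touched.

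Of 5 genes of spindle assembly, 4 rose. HMMR (ENSG00000072571; chromosome 5, 163460203 to 163491941), a microtubule-binding protein of the spindle poles, had 21.5, 17.5 and 21.9 FPKM in Control and 45.1, 37.8 and 46.2 FPKM in OX-LDL. DLGAP5 (ENSG00000126787; chromosome 14, 55148112 to 55191585), which stabilizes kinetochore fibres, had 16.0, 15.4 and 17.1 FPKM in Control and 29.1, 24.6 and 25.8 FPKM in OX-LDL. Both genes were clear of Control in all 3 OX-LDL libraries. The log2 fold change was 1.11 for HMMR (standard error 0.13, edgeR adjusted p = 0.00391) and 0.75 for DLGAP5 (standard error 0.09, edgeR adjusted p = 0.00469). ASPM, which focuses spindle poles, rose by 0.59, and TPX2, which activates AURKA on the spindle, by 0.45. TPX2 had the highest mean of the 42 genes in Control, 126 FPKM, and its call (edgeR adjusted p = 0.048) was lost in 5 of the 6 fits without a library, all but that without OX-LDL replicate 2. ASPM lost its call without OX-LDL replicate 1 or 3 or Control replicate 2. NUSAP1, a microtubule bundler, had a log2 fold change of 0.46 (edgeR adjusted p = 0.163), with 38.5 FPKM in Control replicate 1 and 54.2 and 57.2 FPKM in the other Control libraries.

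Of 3 genes of cytokinesis, 1 rose. ANLN (ENSG00000011426; chromosome 7, 36389821 to 36453791), the anillin scaffold of the contractile ring, had 61.3, 59.4 and 58.4 FPKM in Control and 137, 97.2 and 130 FPKM in OX-LDL. The lowest OX-LDL library was 1.59-fold above the highest Control library, and the log2 fold change was 1.06 (standard error 0.13, edgeR adjusted p = 0.00478). PRC1 (ENSG00000198901; chromosome 15, 90966040 to 90994602), which bundles the microtubules of the central spindle, had 17.4, 28.3 and 16.7 FPKM in Control and 36.6, 26.9 and 33.7 FPKM in OX-LDL. Control replicate 2 stood above the other Control libraries and above OX-LDL replicate 2. The log2 fold change of PRC1 was 0.67 (standard error 0.21, edgeR adjusted p = 0.0825), and 0.94 without Control replicate 2 (edgeR adjusted p = 0.0266). ECT2, the exchange factor that activates RhoA at the cleavage furrow, had a log2 fold change of 0.19 (edgeR adjusted p = 0.13).

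TOP2A and MKI67, which are often used to score proliferating cells, rose by less than most of the others. MKI67 (ENSG00000148773; chromosome 10, 128096659 to 128126423), which encodes the chromosome surface protein Ki-67, had 55.3, 51.7 and 57.7 FPKM in Control and 71.4, 65.8 and 73.9 FPKM in OX-LDL. TOP2A (ENSG00000131747; chromosome 17, 40388525 to 40417896), the topoisomerase that untangles sister chromatids, had 92.8, 83.3 and 88.8 FPKM in Control and 123, 101 and 117 FPKM in OX-LDL. The groups did not overlap in either gene. The log2 fold change was 0.39 for both, with standard errors of 0.08 for MKI67 and 0.09 for TOP2A and edgeR adjusted p-values of 0.0187 and 0.0332. Both lost the call without OX-LDL replicate 1 or 3 or Control replicate 2, and TOP2A also without Control replicate 1 or 3.

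FOXM1 (ENSG00000111206; chromosome 12, 2857681 to 2877155), the transcription factor that activates many G2 and M phase genes, had the smallest p-value of the 42. It had 13.7, 13.5 and 14.0 FPKM in Control and 31.0, 28.7 and 30.1 FPKM in OX-LDL. Every OX-LDL library was at least 2.05-fold above every Control library, the widest gap among the 42 genes. The log2 fold change was 1.15 (standard error 0.07, edgeR adjusted p = 0.000493). CDCA3 (ENSG00000111665; chromosome 12, 6844793 to 6852066), which promotes mitotic entry through the degradation of WEE1, had 4.51, 5.26 and 5.43 FPKM in Control and 9.80, 7.30 and 8.62 FPKM in OX-LDL. Its groups did not overlap, and the log2 fold change was 0.79 (standard error 0.13, edgeR adjusted p = 0.0108).

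**Figure D2:**
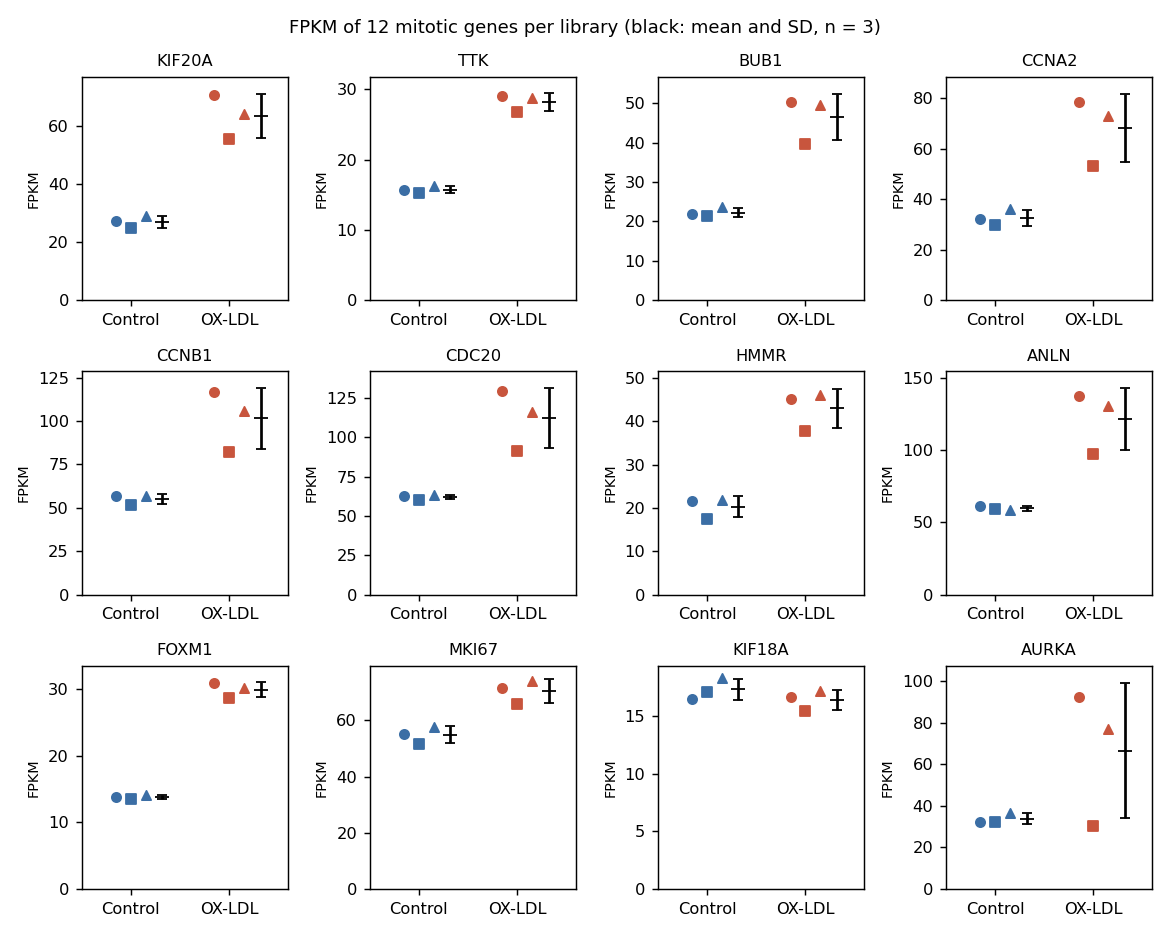
Levels in FPKM of 12 of the mitotic genes, with 1 point per library (circle, square and triangle are replicates 1, 2 and 3) and the mean and SD of each group in black (n = 3). FOXM1 and TTK show narrow groups that are far apart. BUB1 shows groups that are apart, with a wider spread in OX-LDL (39.7 to 50.2 FPKM). KIF18A shows overlapping groups, and in AURKA the OX-LDL square (30.4 FPKM) lies below all Control values.

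Some of these genes passed the DEG limits that the study used, a fold change above 2 or below 0.5 with an unadjusted p-value under 0.05. There were 7 of the 42, all upregulated (KIF20A, BUB1, CCNA2, HMMR, ANLN, FOXM1 and AURKA). Of them, 6 were also called after edgeR's Benjamini-Hochberg adjustment. Over all genes tested the share was smaller, with 6.36% past the limits in either direction and 3.19% upregulated. Without OX-LDL replicate 1, 4 of the 42 passed. Most of the 33 called genes therefore changed by less than 2-fold, with a fold change of 1.31 in MKI67 and TOP2A and 2.39 in KIF20A as the ends of the range. Leaving out each library in turn, 18 of the 33 kept the call in all 6 fits and 15 lost it in at least 1.

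Several of these genes share part of their sequence with a gene that overlaps them, and no source says if strand was used in counting, although the library preparation kept it. Of the 42 genes, 19 overlap no other gene and 8 overlap a gene on the same strand. Of the 42, 8 genes overlap a partner with a mean of at least 1000 counts. The sums of counts below were chosen after the data had been seen.

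PRC1 overlaps AC068831 on its own strand. That gene had 8.53, 4.17 and 12.3 FPKM in Control, and was lowest in Control replicate 2, the library in which PRC1 was highest. Added together, their counts were 13810, 16587 and 14670 in Control and 18079, 17863 and 21085 in OX-LDL, so that the groups no longer overlapped. The summed log2 fold change was 0.40 (edgeR adjusted p = 0.043), which passed the threshold where PRC1 alone did not.

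FOXM1 overlaps RHNO1, a gene of the DNA damage checkpoint, and ITFG2 on the other strand. RHNO1 had 15.1, 20.7 and 19.8 FPKM in Control and 6.57, 6.05 and 6.31 FPKM in OX-LDL, and it fell by 1.52 on the log2 scale (standard error 0.13, edgeR adjusted p = 0.00168). The pair thus moved in opposite directions. With the counts of FOXM1, RHNO1 and ITFG2 added, the log2 fold change was 0.45 (edgeR adjusted p = 0.0105), positive but below the DEG limit.

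CENPA and NUF2 were the genes whose direction turned with their partners. SLC35F6, which overlaps CENPA on the same strand, had 35.6, 7.73 and 35.1 FPKM in Control and 15.0, 14.6 and 15.3 FPKM in OX-LDL. The sum of CENPA and SLC35F6 had a log2 fold change of -0.54 (edgeR adjusted p = 0.437). RGS5, on the other strand from NUF2, had 39.2 to 91.6 FPKM over the 6 libraries. The sum of NUF2, RGS5 and AL592435, which also overlaps NUF2 on the other strand, had a log2 fold change of -0.30 (edgeR adjusted p = 0.363). In these sums SLC35F6 and RGS5 held most of the counts. The partners' part in the values of CENPA and NUF2 was not tested. With same-strand sums 33 of the 42 were called higher, and with sums over either strand 32 were. With sums over either strand, 3 of the 42 passed the DEG limits.

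**Figure D3:**
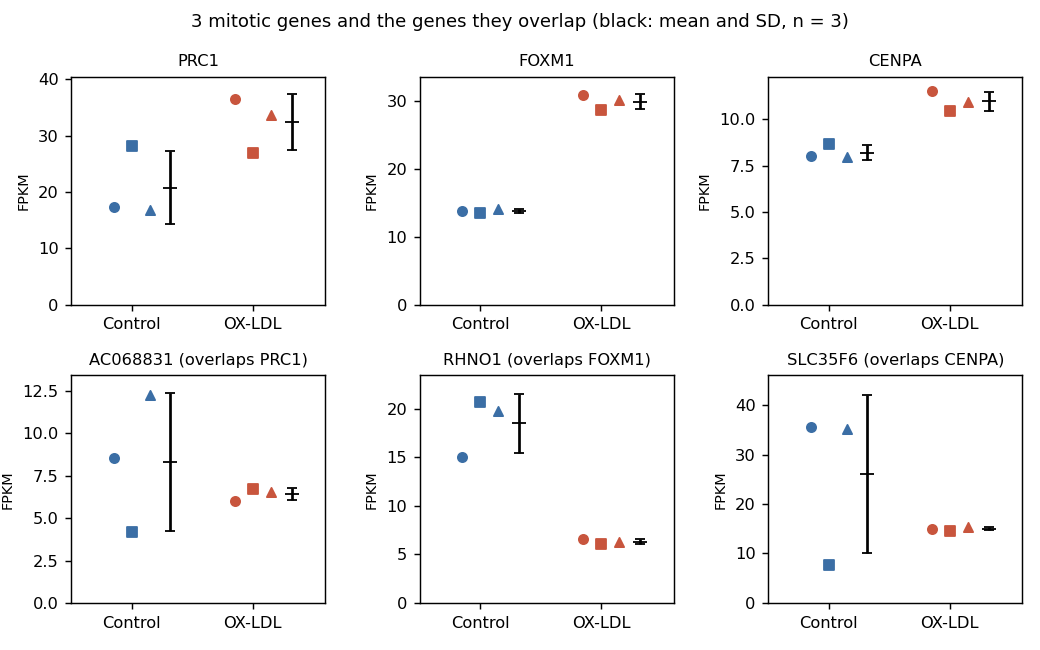
FPKM of PRC1, FOXM1 and CENPA (top) and of a gene that each overlaps (bottom), with 1 point per library (circle, square and triangle are replicates 1, 2 and 3) and the mean and SD of each group in black (n = 3). Control replicate 2 (28.3 FPKM) is the highest Control value of PRC1 and the lowest of AC068831, RHNO1 falls where FOXM1 rises, and SLC35F6 has 1 low Control library (7.73 FPKM).

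The rest of mitosis was followed in a list of 113 other mitotic genes. Of these, 38 rose and 3 fell (33.6% higher, beside 7.91% of all genes), with a median log2 fold change of 0.27. The genes with the smallest p-values were ZW10, a kinetochore protein of the checkpoint (log2 fold change 0.69, standard error 0.08, edgeR adjusted p = 0.00386), SPAG5, which is also called astrin and acts at the spindle (0.93, 0.11 and 0.00475), and SAPCD2, a regulator of spindle orientation (0.70, 0.09 and 0.00491). The genes that fell were ANAPC16, a subunit of APC/C (log2 fold change -0.42), MIS12, a subunit of the kinetochore complex of its name (-0.38), and KIF24, a kinesin of centrioles (-0.67), which are named after their values had been seen. The 41 calls were 26, 16 and 23 without Control replicates 1, 2 and 3, and 17, 45 and 15 without OX-LDL replicates 1, 2 and 3. Of all genes, the same fits called 9.21%, 5.95% and 10.2%, and 6.47%, 15.1% and 5.96%, where the fit with every library called 15.3%.

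Complexes within the list are given by their counts. They were grouped after the values had been seen and are a description. Of all genes tested, 7.91% were called higher and 7.42% lower. Condensin I, which compacts mitotic chromosomes, had 3 of 5 subunits higher (SMC4, NCAPD2 and NCAPG), with a median log2 fold change of 0.58. The NDC80 complex had NDC80, NUF2 and SPC25 higher out of 4, with a median of 0.82. The 14 subunits of APC/C itself had 2 higher (ANAPC4 and ANAPC15) and 1 lower, with a median of -0.04. The MIS12 complex had a median of -0.21 over 4 genes. The network of CENP proteins at the inner kinetochore had 2 of 13 higher (CENPI and CENPU), with a median of 0.12. The difference between these complexes was not tested.

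Genes of DNA replication stood near the background. Of 48 genes, 4 rose and 2 fell, which is 8.33% higher beside 7.91% of all genes, with a median log2 fold change of -0.03. The ribonucleotide reductase subunits, which make deoxynucleotides, had the smallest p-values together with ORC1, a subunit of the origin recognition complex. RRM1 had 35.6, 28.2 and 30.6 FPKM in Control and 59.4, 52.6 and 57.4 FPKM in OX-LDL, which is 0.87 higher on the log2 scale (edgeR adjusted p = 0.00513). RRM2 had 7.99, 8.02 and 9.60 FPKM in Control and 14.0, 19.96 and 28.2 FPKM in OX-LDL, which is 1.31 higher on the log2 scale (edgeR adjusted p = 0.0168), with a wide spread in OX-LDL. ORC1 rose by 0.50. The remaining calls, named after their values had been seen, were PRIM2, a primase subunit (log2 fold change 0.36), GINS3 of the replicative helicase (-0.35) and RFC2 of the clamp loader (-0.34). MCM2 to MCM7, the ring of that helicase, had log2 fold changes between -0.35 and 0.12, with edgeR adjusted p-values between 0.0883 and 0.712.

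OX-LDL replicate 2 differed from the other OX-LDL libraries in replication genes as well. The median of the 48 genes, as log2 over the Control mean, was -0.16 in OX-LDL replicate 1, 0.05 in replicate 2 and -0.11 in replicate 3. Without replicate 2, 4 replication genes were called higher and 10 lower, beside 7.55% and 7.53% of all genes. The 6 calls were 2, 1 and 3 without Control replicates 1, 2 and 3, and 3 and 2 without OX-LDL replicates 1 and 3, fits that called 5.95% to 10.2% of all genes. The library with the smallest margin in mitotic genes was thus the one with the highest replication genes of its group, as measured in a single library.

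The regulators of the cell cycle program were followed in a list of 23 genes of the RB, E2F, DREAM and MuvB families. Of these, 1 rose and 1 fell, with a median log2 fold change of -0.14. That is 4.35% higher, where 7.91% of all genes were called higher and 7.42% lower. MYBL1, which is also called A-MYB, had 15.0, 14.1 and 14.0 FPKM in Control and 20.6, 17.4 and 19.0 FPKM in OX-LDL (log2 fold change 0.43, edgeR adjusted p = 0.0185). E2F1, an activator of replication genes, had 16.9, 17.4 and 15.2 FPKM in Control and 9.45, 13.0 and 8.61 FPKM in OX-LDL (log2 fold change -0.64, edgeR adjusted p = 0.0416). NFYC, a subunit of the factor that binds the CCAAT box, had a log2 fold change of -0.33 (edgeR adjusted p = 0.0557). MYBL2, which encodes B-MYB and is named after its values had been seen, was not called. It had 132, 132 and 135 FPKM in Control and 120, 118 and 114 FPKM in OX-LDL (log2 fold change -0.14, edgeR adjusted p = 0.138). In 5 of the 6 fits without a library at most 1 gene of the list was called, beside 5.95% to 10.2% of all genes. Without OX-LDL replicate 2 there were 4, of which 3 were lower, beside 15.1% of all genes called and 7.53% lower. FOXM1, which is counted with the 42, was not part of this list.

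**Figure D4:**
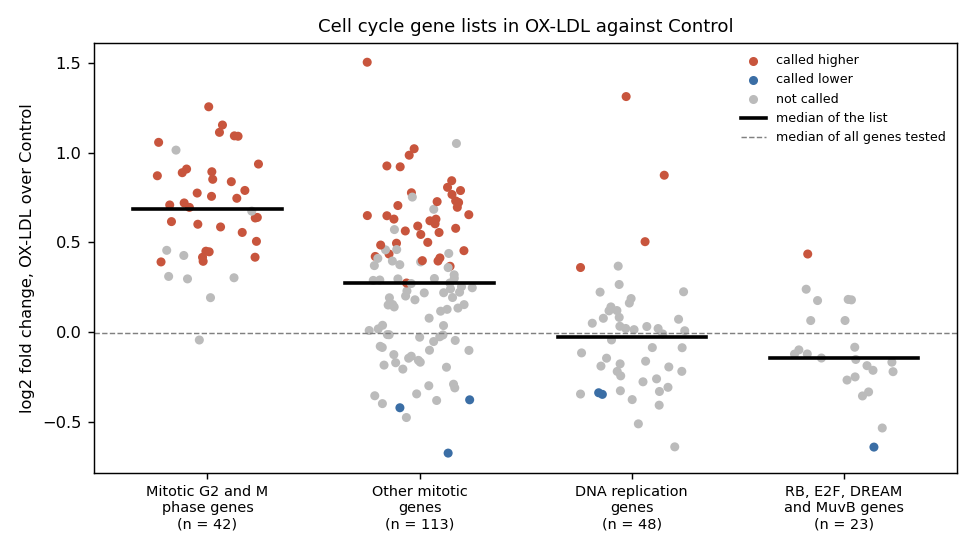
Each point is the log2 fold change (OX-LDL over Control) of 1 gene in the 42 mitotic genes, 113 other mitotic genes, 48 DNA replication genes and 23 RB, E2F, DREAM and MuvB genes, with the points spread sideways for legibility. Red and blue points were called higher and lower, black bars are the medians of the lists (0.68, 0.27, -0.03 and -0.14), and the dashed line is the median of all genes tested.

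Markers of other cells were read beside these results. The tubule and renal epithelial list summed to 232 to 260 FPKM in Control and 274 to 312 FPKM in OX-LDL. Of its 13 rows tested, 4 were called higher and 2 lower, beside 7.91% and 7.42% of all genes. The keratins KRT19 and KRT8 rose by 1.94 and 0.83 on the log2 scale (edgeR adjusted p = 0.00207 and 0.0116), and the kidney cadherin CDH6 rose by 1.36 (edgeR adjusted p = 0.00475). PAX8, a transcription factor of the renal lineage, fell by 1.23 (edgeR adjusted p = 0.0182), and 1 of the 2 rows named GGT1 was also lower (edgeR adjusted p = 0.0371), although Control replicate 2 had as little of it as OX-LDL. The part of these markers in the values of the mitotic genes was not tested. All 7 endothelial markers had a mean under 0.1 FPKM, as did 5 of 9 fibroblast and pericyte markers, whose sum was mostly LUM, with 10.5 to 12.5 FPKM in Control and 9.41 to 14.5 FPKM in OX-LDL. Of 8 leukocyte markers, 6 had a mean under 0.1 FPKM, PTPRC among them. The sum of that list, which was mostly the lysosomal gene CD68, was 3.16 to 7.75 FPKM in Control and 9.19 to 14.1 FPKM in OX-LDL. It was higher in OX-LDL together with the mitotic genes, and its part in their values was not tested.

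The promoters of the mitotic genes were searched for short elements. The choice of genes did not use these letters, but the CHR is known as an element of such genes, so its share is a description. RefSeq promoter sequences (GRCh38.p14, from 250 bases before to 50 bases after the start of transcription) were at hand for 36 of the 42 genes, in 40 promoters. Those of AURKA, BIRC5, FOXM1, TPX2, TTK and UBE2C were not analysed here. The CHR was searched on both strands as TTTGAA, as its variant TTCGAA and as the variant TTTAAA. It was found in 37 of the 40 promoters (92.5%), beside 25.1% of all 35116 promoters of the same length. From 60 bases before to 20 bases after the start, it was found in 27 of 40 (67.5%), beside 7.12% of all. The CCAAT box, searched as CCAAT on both strands, was in 32 of 40 (80%), beside 34.6% of all. Both elements together were in 29 of 40 (72.5%), beside 9.7% of all. An E2F site, searched on both strands as TTCCCGC and with the variants TTGGCGC in its place, also TTCGCGC, and finally TTGCCGC, was in 13 of 40 (32.5%), beside 13% of all.

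Other lists had other shares. In the DNA replication genes the CHR was in 15.7% of 51 promoters, the CCAAT box in 58.8% and an E2F site in 64.7%. In the 113 other mitotic genes the CHR was in 49.3% of 134 promoters, the CCAAT box in 56% and an E2F site in 30.6%. Among the 42, the CHR was in 29 of 30 promoters of genes called higher and in 8 of 10 promoters of genes not called. The CCAAT box was in 24 of 30 and 8 of 10, and an E2F site in 7 of 30 and 6 of 10. These differences were not tested. A match is a run of letters and not a site of binding, and no binding was measured here.

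The windows below, 30 bases long and written 5′ to 3′ on the strand of the gene, show the CHR in capitals in genes of different roles. KIF18A is shown because it holds the same element although its level did not pass the test.
KIF20A (chr5:138179059-138179088, plus strand): cgcagcgcgtaaTTTAAAatattgtatctg
KIF4A (chrX:70290058-70290087, plus strand): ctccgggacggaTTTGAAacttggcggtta
BUB1B (chr15:40161034-40161063, plus strand): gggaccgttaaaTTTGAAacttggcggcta
CCNB1 (chr5:69167108-69167137, plus strand): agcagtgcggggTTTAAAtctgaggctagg
CCNB2 (chr15:59105105-59105134, plus strand): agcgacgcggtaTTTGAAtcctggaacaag
PLK1 (chr16:23678848-23678877, plus strand): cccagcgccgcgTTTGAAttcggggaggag
PTTG1 (chr5:160421814-160421843, plus strand): cgcgagttgtggTTTAAAccaggagtgcgc
HMMR (chr5:163460592-163460621, plus strand): aatgtggggagaTTTGAAtttgaaaccggt
PRC1 (chr15:90994538-90994567, minus strand): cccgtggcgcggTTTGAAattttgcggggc
MKI67 (chr10:128126435-128126464, minus strand): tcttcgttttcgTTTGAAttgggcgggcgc
KIF18A (chr11:28108149-28108178, minus strand): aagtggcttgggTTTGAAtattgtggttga

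The first base of the capitals lay 41 bases before the start in KIF20A, 34 in KIF4A, 30 in CCNB1, 29 in CCNB2, PLK1, PTTG1 and MKI67, 28 in HMMR, 23 in BUB1B, 20 in PRC1 and 10 in KIF18A. In HMMR a further TTTGAA follows directly. MKI67 also held a further TTTGAA before the printed window. KIF20A (log2 fold change 1.25), MKI67 (0.39) and KIF18A (-0.04) each held a CHR, at different distances from the start. The capitals were TTTAAA in KIF20A and TTTGAA in MKI67 and KIF18A. Whether the place or the letters of the CHR go with the change of a gene was not tested.

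**Figure D5:**
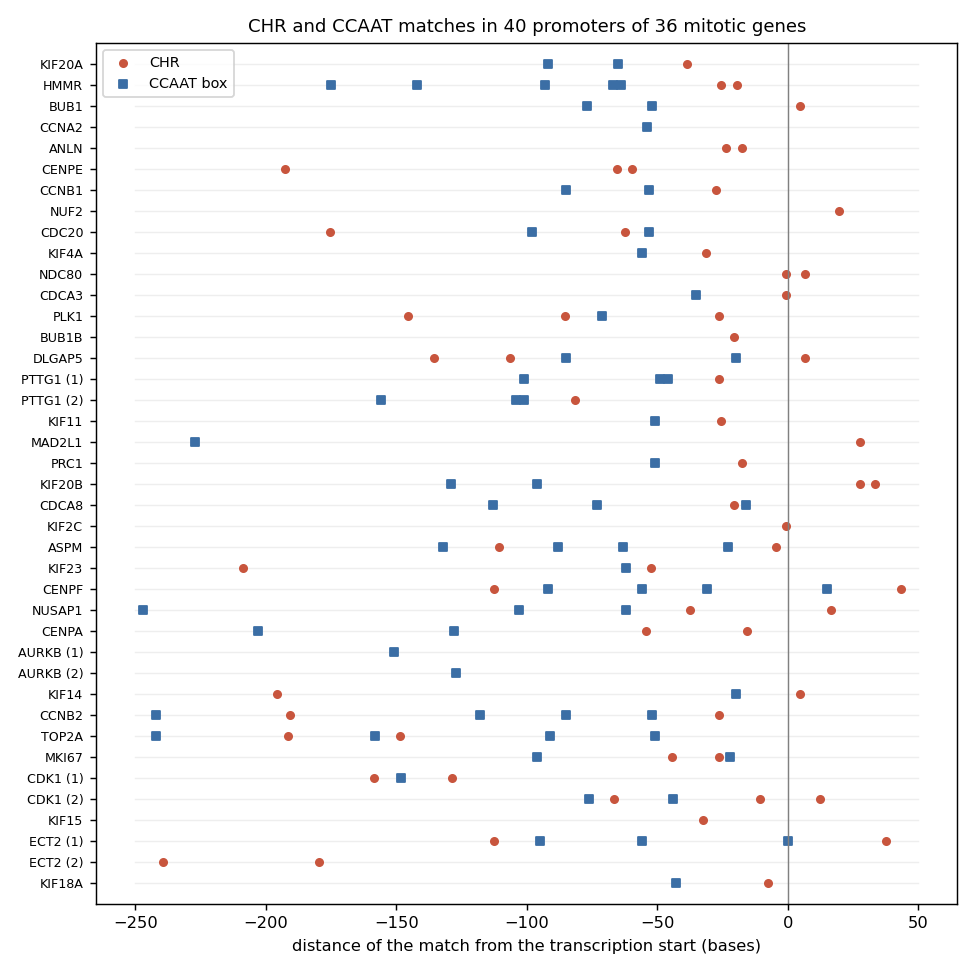
Matches of the CHR (red circles) and the CCAAT box (blue squares) in 40 promoters of 36 mitotic genes, with the genes ordered from the largest log2 fold change at the top to the smallest at the bottom and numbered where a gene has more than 1 promoter. The x axis is the distance of the middle of the match from the start of transcription in bases. Red points lie between 60 bases before and 20 bases after the start in 67.5% of the promoters, from KIF20A at the top to KIF18A at the bottom.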

How the data were processed

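RNA-seq was analysed in 3 Control and 3 OX-LDL libraries of HK-2 cells, grouped by the labels. The submitters' processing notes name cutadapt 1.9, HISAT2 2.0.4, StringTie 1.3.4d, edgeR, DESeq2 and GRCh38, with no roles. The authors deposited 1 table with an estimated count, not scaled for library size, and an FPKM value, scaled by the authors for transcript length and library size, for each of 58825 genes. A count of 0 is listed at 0.0001 FPKM. The chi-square per gene between libraries of a group was 13.1 to 22.5, above sampling noise, so each was counted as a sample. About 4 deposited counts correspond to 1 read pair. Reads carried no molecular identifiers.

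Counts of the 19510 genes whose mean reached 0.1 FPKM were tested with edgeR 4.0.16 (R 4.3.3; TMM, glmQLFit, glmQLFTest, group as the only term), with Benjamini-Hochberg adjustment over all of them. A two-sided exact permutation test of 3 against 3 goes no lower than p = 0.1 and was not used. The fit was tested on simulated data. Alternatives were DESeq2 1.42.0, limma 3.58.1 on log2(FPKM + 0.1, 1 or 0.01), other scalings, minimum levels, counts divided by 4, a replicate block, leaving out each library, and sums with overlapping genes, which were added after the data had been seen. Coordinates of genes are those of the deposited table. Motifs were counted in RefSeq promoters of GRCh38.p14.

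The 42 genes, their roles and the lists were chosen with earlier results of these data known. Any of the 42 could be named. Values in every library were given for KIF20A, for the 2 genes of each role with the smallest p-values, for the gene with the largest p-value, and, chosen after they had been seen, for CDK1, AURKA and overlapping genes. Of each other list, up to 3 genes with the smallest p-values were named, and others after their values had been seen.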

Additional observations from a re-analysis of the deposited data

How the results depend on the processing

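None of the 42 mitotic genes was called lower under any of the 19 alternatives, and their median log2 fold change stayed between 0.61 and 0.79. Of the 33 called, 17 were called under every alternative, and 5 of the 9 not called passed under at least 1. Leaving out 1 library gave 18 to 35 calls, 4 to 10 genes past the DEG limits, 15 to 45 calls among the other mitotic genes, 1 to 14 among DNA replication genes and 0 to 4 among the RB, E2F, DREAM and MuvB genes. Those fits called 5.95% to 15.1% of all genes in either direction, and 3.17% to 7.55% of all genes higher. The share of all genes past the DEG limits in those fits is not given here. With DESeq2, 10 replication genes and 4 RB, E2F, DREAM and MuvB genes were called, beside 22.7% of all genes; the latter were 4 with a minimum of 1 FPKM and 1 with no minimum (25.7% and 7.46% of all genes). Adding counts of genes overlapping on either strand left 3 mitotic genes past the DEG limits and turned NUF2 to -0.30 and CENPA to -0.54 (-0.54 with the same strand alone). In these sums RGS5 and SLC35F6 held most of the counts.

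Libraries with the same replicate number did not deviate together (correlations of -0.041 to 0.0356), and 2 of 6 correlated best with their own number, so the number was not taken as a pairing. With a replicate block, 29 of the 42 genes were called higher, beside 4.38% of all genes called higher. In either direction, that fit called 27 of the other mitotic genes and 3 of the replication genes, beside 8.39% of all genes. Other scalings moved the median of all genes by less than 0.04 on the log2 scale. Among the recomputed fold changes of the 42 genes, 701 kept direction and side of the threshold, 83 lost it, 11 gained it and 3 turned.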
